A study of Mus musculus with 3 samples.

Results

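The IGF-binding proteins, the ligand *Igf1* and the Igf2bp family were compared across 3 related mouse tumor lines, Colon26, LuM1 and NM11. The members were *Igf1*, *Igfbp2*, *Igfbp3*, *Igfbp4*, *Igfbp5*, *Igfbp6*, *Igfbp7*, *Igf2bp1*, *Igf2bp2* and *Igf2bp3*, which are 10 of the 22911 genes named on the array. They were found through the accession of each probe, which gave 13 probes, each printed as a single spot. The mRNA of *Igf2bp2*, an RNA-binding protein, was 7.96-fold lower in LuM1 cells than in Colon26 cells and 7.21-fold lower than in NM11 cells. That of *Igfbp6*, a secreted binding protein that prefers IGF-II, was 4.64-fold and 2.93-fold lower. *Igf1* was well above background in NM11 cells alone. There was 1 array per cell line, so none of these differences has a replicate check and no test was run.

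Colon26 is a colon adenocarcinoma line of the mouse. LuM1 is its high-metastatic and NM11 its low-metastatic subline, and the labels give the strain of all lines as BALB/c and the sex as female. The labels name no engineered allele and no agent for any line. Each line was grown in RPMI1640 with serum and antibiotics for 3 days, and 0.1 µg of its total RNA was labelled with Cy3 and hybridized to a single-colour array. Cell line, culture and array cannot be told apart, and since total RNA of a whole culture was measured, fewer cells expressing a gene and less RNA per cell cannot be told apart either.

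Of 56605 probes, the shares called well above background on the Colon26, LuM1 and NM11 arrays were 49.9%, 53.8% and 52.5%, and 0 spots were saturated. Signals are given in array units, with the 75th percentile of every array set to 585.1. The error after ± is the scanner software's own error of the spot, which leaves out the spread between cultures. A probe not well above background has only a bound on that array, taken at its own signal or at the array's lowest signal called well above background (26.4, 20.1 and 19.6 for Colon26, LuM1 and NM11), whichever is larger. Ratios against a bound carry the words at least. Where a spot was not even significantly above background, the value that the scanner software wrote is the error of the spot. Of 9 genes of colon epithelium, 4 were well above background in Colon26 cells, 5 in LuM1 cells and 4 in NM11 cells, and their summed signal was 1246, 499 and 480.3. *Cdh1*, *Krt18*, *Krt19* and *Vil1* were not well above background on any array, although the lines are labelled as adenocarcinoma. *Krt20* (651 in Colon26, 54.5 in LuM1 and 157 in NM11 cells), *Cdx2* (443, 232 and 167), *Cldn7* (91.4, 58.1 and 93.6) and *Krt8* (28.9, 108 and 37.1) passed the background rule in every line, and *Epcam* did so in LuM1 cells alone (28.0). Fibroblast or mesenchyme genes were well above background for 5, 7 and 7 of 8, with a summed signal of 168256, 131565 and 218312. These sums hid opposed changes. Of 7 with a ratio in LuM1 over Colon26, 3 (*Col3a1*, *Dcn*, *Thy1*) were at least 2-fold higher and 2 (*Col1a1*, *Col1a2*) lower. Among all genes with a ratio, 13.1% were at least 2-fold higher and 11.8% lower. *Col1a2* read 59896 in Colon26, 49.6 in LuM1 and 85275 in NM11 cells. *Dcn* and *Thy1* failed the background rule on the Colon26 array. *Dcn* read 27503 in LuM1 and 9599 in NM11 cells, and *Thy1* 19560 and 15416. The leukocyte list gave 3, 4 and 3 of 6 with a sum of 5855, 12643 and 5134, with the pan-leukocyte gene *Ptprc* not well above background on any array. Among them the macrophage marker *Cd68* read 172 in Colon26, 5251 in LuM1 and 299 in NM11 cells, and *Itgam* 5027, 6818 and 4251. The endothelial list gave 1 of 4 on each array, with sums from 66.0 to 93.9. What part these markers had in the ratios that follow was not tested.

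IGF-I and IGF-II are growth factors that act through the IGF-I receptor. The IGF-binding proteins are secreted proteins that hold IGFs in the extracellular space, and proteases that cleave them release the ligand. The Igf2bp proteins do not bind IGFs. They are RNA-binding proteins, named for the *Igf2* mRNA, that alter the stability, transport and translation of many mRNAs. They are called oncofetal because they are abundant in the embryo, low in most adult tissues and raised again in many tumors, including those of the colon.

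*Igf2bp2* and *Igfbp6* were lower by at least 2-fold in LuM1 cells than in either other line, and the 250 bases before the start of each are shown for that reason. In NM11 over Colon26 their log2 ratios differed (-0.14 and -0.66). The sequences are RefSeq's for assembly GRCm38.p6 and are printed 5′ to 3′ on the gene's strand. Capitals mark matches to the motifs searched on both strands. The *Igf2bp2* window lies at chr16:22163300-22163549 on the minus strand and the *Igfbp6* window at chr15:102143936-102144185 on the plus strand.
Igf2bp2: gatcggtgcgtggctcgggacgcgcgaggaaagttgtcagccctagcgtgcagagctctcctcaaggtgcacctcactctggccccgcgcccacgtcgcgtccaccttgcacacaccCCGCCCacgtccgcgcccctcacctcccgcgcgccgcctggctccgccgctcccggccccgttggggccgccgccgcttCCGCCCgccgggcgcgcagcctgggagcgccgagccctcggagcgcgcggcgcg
Igfbp6: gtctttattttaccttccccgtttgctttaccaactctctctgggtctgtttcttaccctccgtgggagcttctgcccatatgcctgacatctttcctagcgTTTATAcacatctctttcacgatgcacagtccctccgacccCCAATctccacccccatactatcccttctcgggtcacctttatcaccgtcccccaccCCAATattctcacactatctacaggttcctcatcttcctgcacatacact

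The sequences had different base composition. The *Igf2bp2* window was 77.2% G and C, more than 97.4% of the 32851 mouse promoter windows of that length, and held 2 matches to the GC box GGGCGG, a motif found in 32.7% of all windows. The *Igfbp6* window was 49.6% G and C, more than 39.5% of windows. It held 2 matches to the CCAAT box CCAAT, present in 33.8% of all windows, and 1 match on the reverse strand to the TATA box TATAAA, present in 12.4%. Neither window held the E box CACGTG or the AP-1 motif TGANTCA, which were in 6.02% and 6.75% of windows. No marked match overlapped another. A match is only a run of letters and says nothing of a factor's binding. A promoter sequence was at hand for 9 of the 10 members, and *Igf2bp1* was the exception.

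Among the RNA-binding proteins, *Igf2bp2* is the family member that stays expressed in many adult tissues. Its brighter probe read 2302 ± 230.3 in Colon26 cells, 289 ± 29.3 in LuM1 cells and 2086 ± 209 in NM11 cells. The second probe read 1380.4 ± 138, 152 ± 15.9 and 1228 ± 123. Both probes thus placed LuM1 far below the other lines, which lay within their scanner errors of each other. The log2 ratio of LuM1 over Colon26 was -2.99 (scanner error 0.21) by the brighter probe and -3.19 (0.21) by the other, and LuM1 over NM11 was -2.85 (0.21) and -3.02 (0.21). NM11 over Colon26 was -0.14 (0.20) and -0.17 (0.20). Of 14182 genes with a ratio of LuM1 over Colon26, 295 (2.08%) were as low as *Igf2bp2* or lower, and of 14411 with a ratio of LuM1 over NM11, 218 (1.51%) were. The measured spots within 10 rows and columns on the slide had a median log2 ratio of LuM1 over Colon26 of -0.27 (150 spots) around the brighter probe and -0.07 (209 spots) around the other, beside -0.13 for all measured genes, and their part in the result was not tested.

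*Igf2bp1*, which is known for stabilizing the *Myc* mRNA, had a signal of 1786 ± 179 in Colon26 cells, 1023 ± 102 in LuM1 cells and 1793 ± 179 in NM11 cells. LuM1 was again the lowest of the lines, with a log2 ratio of -0.80 (0.20) over Colon26 and -0.81 (0.20) over NM11, which is 1.75-fold lower in each case and short of 2-fold. NM11 and Colon26 differed by 0.01 (0.20) on that scale. *Igf2bp3*, the member least found in normal adult tissue, was dim and ran the other way. Its brighter probe gave 27.9 ± 6.09 in Colon26 cells, 62.6 ± 7.49 in LuM1 cells and 38.2 ± 5.49 in NM11 cells. LuM1 was 2.25-fold above Colon26 (log2 1.17, scanner error 0.36) and 1.64-fold above NM11 (0.71, error 0.27). The Colon26 signal was close to the lowest one called well above background there, and the second *Igf2bp3* probe was not well above background on any array, so the rise in LuM1 rests on 1 probe.

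**Figure D1:**
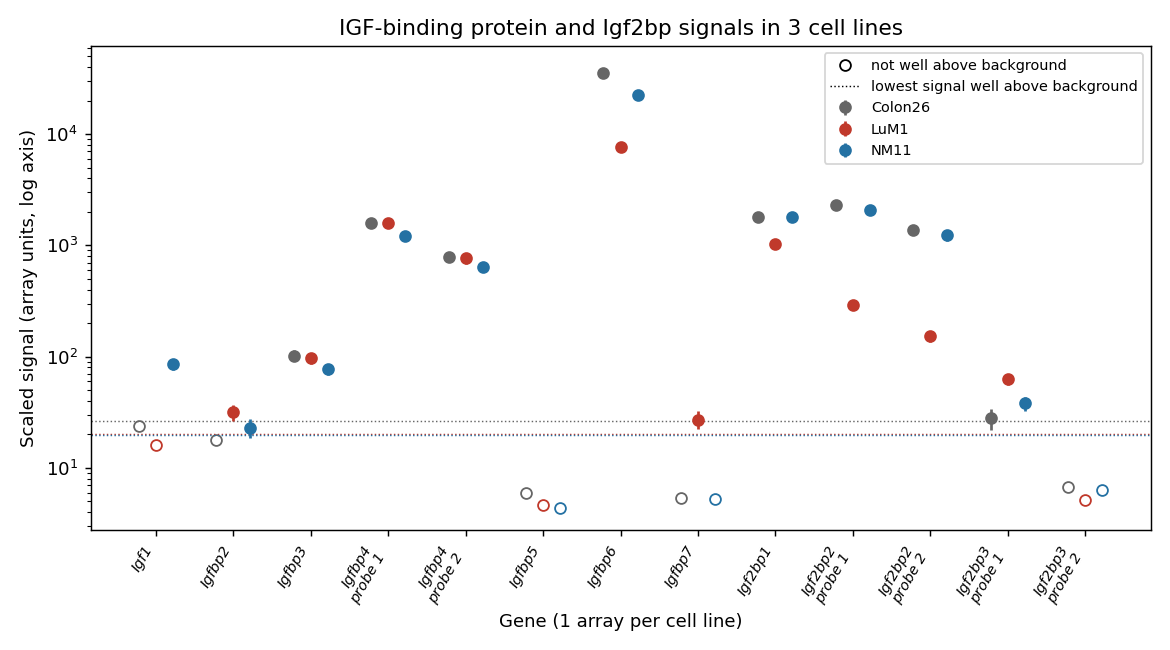
Scaled signal (array units, log axis) of each of the 13 probes of the 10 members in Colon26, LuM1 and NM11 cells, 1 array per line. Bars are the scanner error, open circles are probes not well above background and dotted lines are the lowest signal called well above background on each array. Both *Igf2bp2* probes and the *Igfbp6* probe sit lowest in LuM1 cells, and *Igf1* is a filled circle in NM11 cells alone.

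Of the secreted binding proteins, *Igfbp6* had the largest measured ratios. Its signal was 35747 ± 3575 in Colon26 cells, 7712 ± 771 in LuM1 cells and 22560.2 ± 2256 in NM11 cells. All 3 values lay further apart than their scanner errors, with LuM1 lowest and NM11 between. The log2 ratio was -2.21 (0.20) for LuM1 over Colon26, -1.55 (0.20) for LuM1 over NM11 and -0.66 (0.20) for NM11 over Colon26, so NM11 was 1.58-fold below the parental line. A ratio as low or lower was found for 476 genes (3.36%) in LuM1 over Colon26 and for 519 (3.60%) in LuM1 over NM11. The 159 measured spots around the *Igfbp6* probe had a median log2 ratio of -0.12 in LuM1 over Colon26.

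*Igfbp4*, an inhibitory binding protein cleaved by PAPP-A, was near equal in Colon26 and LuM1 cells. Its brighter probe read 1600.5 ± 160.1, 1586 ± 159 and 1207 ± 121 in Colon26, LuM1 and NM11 cells. The second probe read 791 ± 79.3, 763 ± 76.4 and 641 ± 64.2. By the first probe LuM1 over Colon26 was -0.01 (0.20) and NM11 over Colon26 -0.41 (0.20) on the log2 scale, and by the second -0.05 (0.20) and -0.30 (0.20). *Igfbp3*, the main IGF carrier of serum, read 102 ± 11.5, 96.7 ± 10.5 and 77.3 ± 8.65. Its log2 ratio over Colon26 was -0.08 (0.23) in LuM1 cells and -0.40 (0.23) in NM11 cells. For both genes NM11 was the lowest line, by less than 2-fold.

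The remaining binding proteins were at or near background. *Igfbp2*, which is raised in several tumors, was not well above background in Colon26 cells (17.9 ± 5.71) and just above it in LuM1 (31.5 ± 5.22) and NM11 cells (23.0 ± 4.59). LuM1 was at least 1.19-fold above Colon26 and 1.37-fold above NM11 (log2 0.45, error 0.37), so the gap between LuM1 and NM11 was little above the scanner error. *Igfbp7*, a family member of low affinity for IGFs, was well above background in LuM1 cells alone, with 5.39 ± 5.40 in Colon26 cells, 27.2 ± 4.96 in LuM1 cells and 5.30 ± 4.01 in NM11 cells. These values give bounds of only 1.03-fold over Colon26 and 1.39-fold over NM11. *Igfbp5*, which binds extracellular matrix, was not well above background on any array (5.95 ± 5.96, 4.60 ± 4.62 and 4.35 ± 4.36), and no ratio was taken.

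*Igf1*, the only IGF ligand among the members, was not well above background in Colon26 (24.0 ± 5.87) or LuM1 cells (16.0 ± 4.38) and read 85.6 ± 9.41 in NM11 cells. The Colon26 and LuM1 signals were still significantly above background, so *Igf1* was dim there rather than shown to be absent. NM11 was thus at least 3.24-fold above Colon26, and LuM1 at least 4.25-fold below NM11. A ratio or bound as high as that of NM11 over Colon26 was found for 586 of 13832 genes (4.24%).

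**Figure D2:**
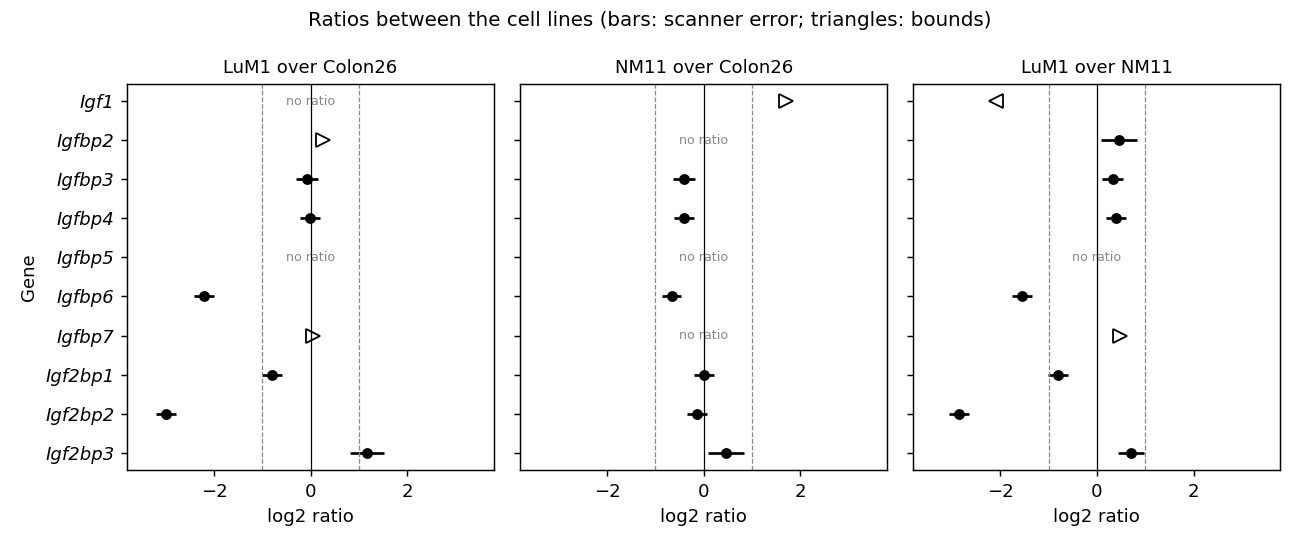
Log2 ratios of the 10 members for LuM1 over Colon26, NM11 over Colon26 and LuM1 over NM11, by the brightest probe of each gene, with 1 array per line. Bars are the scanner error, triangles are bounds that point to the side of the larger change and dashed lines mark 2-fold. *Igf2bp2* and *Igfbp6* lie left of the dashed line in both comparisons of LuM1.

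The members were also counted against a 2-fold threshold. In LuM1 over Colon26 a ratio or bound could be given for 8 members, and 1 (*Igf2bp3*) was at least 2-fold higher and 2 (*Igfbp6*, *Igf2bp2*) at least 2-fold lower, beside 13.1% and 11.8% of all genes with a ratio. With quantile normalization or the normexp correction the split was 0 higher and 2 lower. In NM11 over Colon26, of 7 members 1 (*Igf1*) was at least 2-fold higher and 0 lower, beside 8.34% and 7.89%. Scaling to *Hprt* made this 1 and 1, and the normexp correction 0 and 0. In LuM1 over NM11, of 9 members 0 were higher and 3 (*Igf1*, *Igfbp6*, *Igf2bp2*) lower, beside 11.1% and 8.5%. The split became 3 higher and 2 lower with *Hprt*, and 1 higher and 3 lower with the E1A spike-in controls or the authors' processed values. Lower in LuM1 than in both other lines by at least 2-fold were 2 of 8 members, beside 4.34% of all genes, and higher than in both were 0 of 8, beside 7.89%. The median log2 ratio of the members was -0.05 in LuM1 over Colon26, -0.14 in NM11 over Colon26 and 0.32 in LuM1 over NM11, beside -0.10, -0.01 and -0.09 for all genes. The first of these turned positive without scaling (0.06), with *Hprt* (0.06) and with the authors' processed values (0.40). The median of all genes did so too (0.013, 0.008 and 0.35). The third stayed above 0 in every setting. It was lowest with normexp (0.05, all genes -0.13) and quantile normalization (0.07, all genes -0.03), and highest with *Hprt* (0.91, all genes 0.51). In LuM1 over Colon26, 3 members lay above 0 and 5 below, so they shared no direction.

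**Figure D3:**
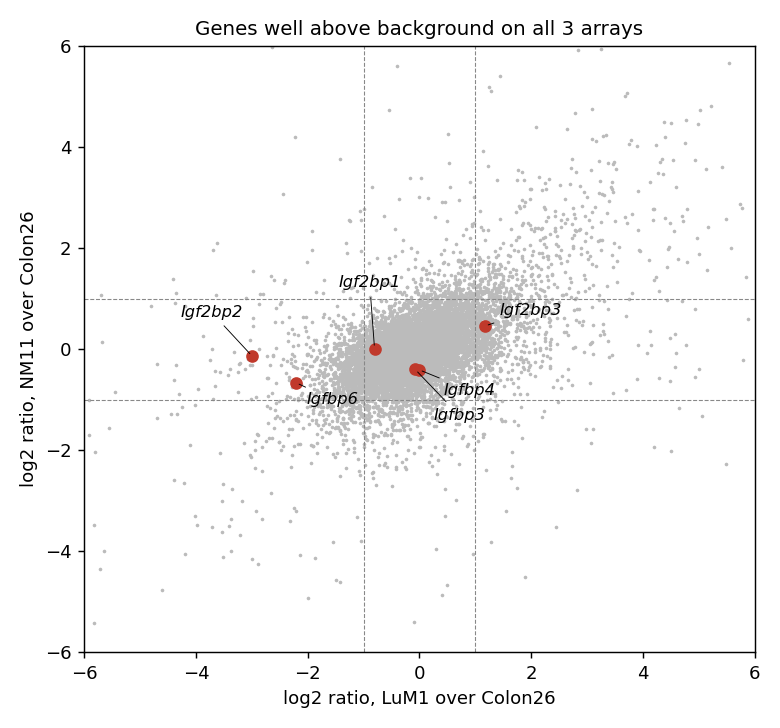
Log2 ratio of NM11 over Colon26 against that of LuM1 over Colon26 for 12249 genes that passed the background rule on every array (grey), with the 6 members among them in red. Dashed lines mark 2-fold, and 35 genes lie outside the drawn range. *Igf2bp2* lies at -2.99 on the LuM1 axis and -0.14 on the NM11 axis, whereas *Igfbp6* lies below 0 on both.

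Genes with a like pattern were looked up for the 3 members that passed the background rule on every array and were at least 2-fold apart in some comparison, as those with the smallest Euclidean distance in both log2 ratios over Colon26, among 12249 genes over 3 lines. Nearest to *Igf2bp2* were *Amot*, which encodes the junction protein angiomotin (distance 0.087), *Ccdc74a* (0.17) and *Ephb2*, a receptor for ephrin-B ligands (0.18). *Amot* read 2048 in Colon26 cells, 245 in LuM1 cells and 1799 in NM11 cells. Nearest to *Igfbp6* were *1810062G17Rik* (0.050), the small nucleolar RNA host gene *Snhg4* (0.062) and *Dusp8*, a phosphatase of MAP kinases (0.089). Nearest to *Igf2bp3* were *Rprl3* (0.0097), *Ppp1r12b*, a subunit of myosin phosphatase (0.015), and *Klhl25* (0.029). The likeness rests on 3 arrays.

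The neighbouring protein-coding genes on the chromosome did not all move with the lowered members. *Igf2bp2* lies between *Senp2* and *Tra2b* on chromosome 16. *Senp2*, a SUMO protease gene, read 2177 in both Colon26 and LuM1 cells and 2004 in NM11 cells. *Tra2b*, a splicing factor gene, read 25156, 13820.2 and 24375, a log2 ratio of -0.86 for LuM1 over Colon26. *Igfbp6* lies between *Spryd3* and *Soat2* on chromosome 15, whose log2 ratios for LuM1 over Colon26 were -0.23 and -0.88. For LuM1 over NM11 they were 0.13 and -1.23, so *Soat2* was more than 2-fold lower there. *Igfbp2* and *Igfbp5* are neighbours on chromosome 1, and *Igfbp3* lies next to *Igfbp1* on chromosome 11. *Igfbp1* and *Igfbp5* were not well above background on any array. The neighbours were looked up after the values of the members were seen.

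The other genes of the IGF pathway were taken from a list of 24 ligands, receptors, adaptors, proteases and related secreted proteins. Of 18 with a ratio in LuM1 over Colon26, 2 were at least 2-fold higher and 5 lower, beside the 13.1% and 11.8% of all genes. In NM11 over Colon26, 3 of 17 were higher and 3 lower, beside 8.34% and 7.89%. In LuM1 over NM11, 4 of 16 were higher and 5 lower, beside 11.1% and 8.5%. With the authors' processed values the LuM1 over Colon26 split was 4 higher and 3 lower, and LuM1 over NM11 was 4 and 3, as also with *Hprt* or the E1A controls. With *Hprt* or the E1A controls NM11 over Colon26 became 2 and 4. The median log2 ratio of the list was -0.40, -0.08 and -0.18 in the order given, beside -0.10, -0.01 and -0.09 for all genes. The first turned to 0.05 with the authors' processed values, where the median of all genes was 0.35, and to 0.026 with each gene's probes averaged, where it was -0.09. The second turned to 0.07 with the normexp correction and to 0.19 with the mean over probes (all genes 0.02 and -0.01). The third turned to 0.40 with *Hprt*, 0.14 with E1A and 0.23 with the authors' values, beside 0.51, 0.24 and 0.33 for all genes.

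Of the ligands and serum carriers, *Igf2* by both of its probes, *Igfbp1*, *Igfbpl1* and *Igfals*, the acid-labile subunit, were not well above background in any line. The receptor genes *Igf1r*, *Igf2r* and *Insr* were well above background on all arrays. *Igf2r*, which takes up and clears IGF-II, read 934 ± 93.6 in Colon26 cells, 2696 ± 269.7 in LuM1 cells and 1070.4 ± 107 in NM11 cells, so LuM1 was 2.89-fold and 2.52-fold above the others. The signaling receptor *Igf1r* stayed within 2-fold, and its probes disagreed in sign (LuM1 over Colon26 -0.29 and 0.77 on the log2 scale). The adaptors that pass the receptor's signal on moved apart. *Irs1* read 1369.7 ± 137, 1824 ± 182 and 4445 ± 445, and was 3.25-fold higher in NM11 than in Colon26 cells and 2.44-fold lower in LuM1 than in NM11 cells. *Irs2* read 7209.6 ± 721, 2742 ± 274 and 6814 ± 681, which put LuM1 2.63-fold and 2.49-fold below the other lines. Of the spots around its probe, 8.75% were well above background on the Colon26 array alone, beside 1.89% of all spots. The measured spots there had a median log2 ratio of -0.33 in LuM1 over Colon26 and 0.08 in LuM1 over NM11. Their part in the *Irs2* ratios was not tested.

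Several genes that govern IGFBP cleavage differed widely between the lines. *Pappa*, whose protease cleaves IGFBP4, was not well above background in any line. *Stc2* encodes stanniocalcin-2, an inhibitor of that protease, and passed the background rule in Colon26 cells alone (649 ± 65.1), at least 32.2-fold above LuM1 and at least 33.1-fold above NM11. Its relative *Stc1* was well above background in LuM1 cells alone (51.5 ± 7.14), at least 2.63-fold above NM11. The protease *Htra1*, which degrades IGF-binding proteins, read 34409 ± 3441 in Colon26 cells, 438 ± 44.0 in LuM1 cells and 9525 ± 953 in NM11 cells. LuM1 was 78.5-fold below Colon26 and 21.7-fold below NM11, NM11 was 3.61-fold below Colon26, and the second *Htra1* probe placed the lines in the same order. For the related *Htra3* the probes disagreed: the brighter gave LuM1 1.94-fold below Colon26 and the other at least 2.34-fold above.

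The metalloproteases of the list ran in different directions. *Adam12*, which cleaves IGFBP3 and IGFBP5, read 189 ± 19.7, 83.2 ± 9.39 and 442.5 ± 44.4, with NM11 2.34-fold above Colon26 and LuM1 2.27-fold below it. *Mmp3*, the gene named in the title of the series, read 58.6 ± 8.24 in Colon26 cells, 103171 ± 10317 in LuM1 cells and 29944 ± 2994 in NM11 cells. LuM1 was thus 1762-fold and NM11 511-fold above Colon26, with a scanner error of 0.25 on the log2 scale, and LuM1 was 3.45-fold above NM11. Other secreted proteins of the list share the IGFBP-type domain. *Esm1* (endocan) read 12919 ± 1292, 2147 ± 215 and 18823 ± 1882, so LuM1 was 6.02-fold below Colon26 and 8.77-fold below NM11. *Kazald1* read 2145 ± 215, 2136 ± 214 and 1036 ± 104, with NM11 2.07-fold below Colon26.

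**Figure D4:**
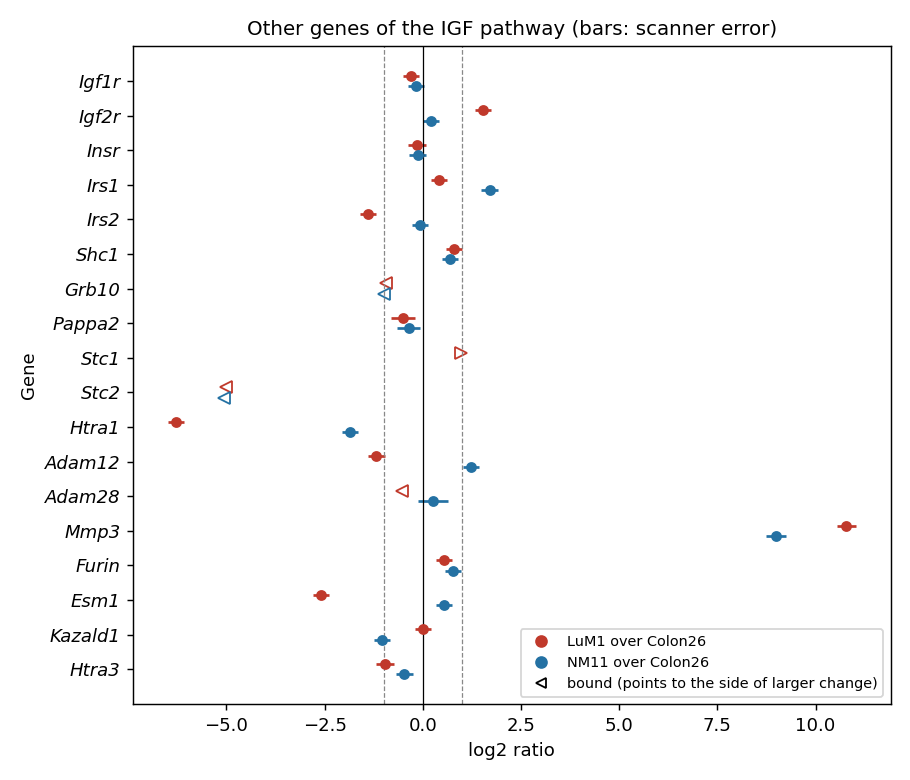
Log2 ratios of LuM1 over Colon26 and NM11 over Colon26 for the other IGF pathway genes that had a ratio, by the brightest probe of each gene. Bars are the scanner error, open triangles are bounds and dashed lines mark 2-fold. *Mmp3* lies farthest to the right, at 10.78 in LuM1 cells, and *Htra1* lies at -6.29 in LuM1 and -1.85 in NM11 cells.

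The lower *Igf2bp2* and *Igfbp6* signals in LuM1 cells held their direction under each alternative that could change them. *Igfbp6* has a single probe, so the mean over probes was a check of *Igf2bp2* alone. The looser rules on dim probes could change neither gene, since both were well above background on all arrays. The log2 ratio of *Igf2bp2* in LuM1 over Colon26 lay between -3.09 and -2.55, and that of *Igfbp6* between -2.22 and -1.77. In LuM1 over NM11 *Igf2bp2* lay between -2.93 and -2.26, whereas *Igfbp6* ended less than 2-fold lower (-0.96) with *Hprt*. *Igf2bp1* stayed below 0 throughout in both comparisons of LuM1. The *Igf2bp3* ratio in LuM1 over Colon26 fell to 0.45 with the normexp background correction, and the *Igf1* bound of NM11 over Colon26 to 0.84.

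**Figure D5:**
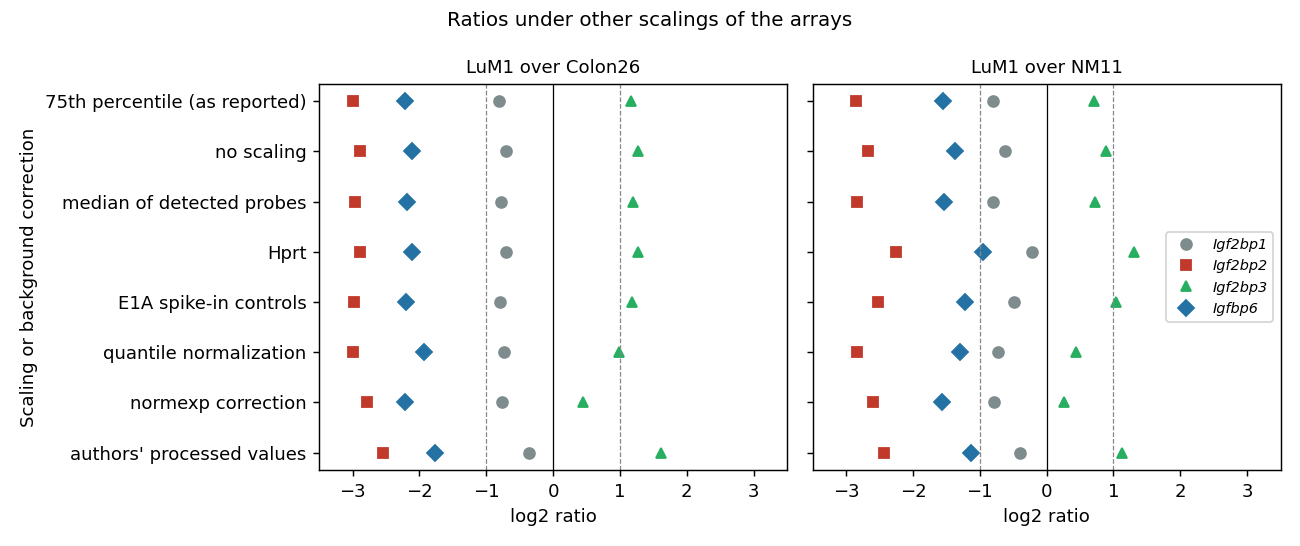
Log2 ratio of *Igf2bp1*, *Igf2bp2*, *Igf2bp3* and *Igfbp6* in LuM1 over Colon26 (left) and LuM1 over NM11 (right) under 8 ways of scaling or correcting the arrays, with dashed lines at 2-fold. *Igf2bp2* stays left of the lower 2-fold line in both panels, nearest to 0 at -2.26, and *Igf2bp3* crosses the upper 2-fold line in both.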

How the data were processed

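Gene expression was measured in Colon26, LuM1 and NM11 cells with 1 single-colour Agilent mouse array each. The authors deposited spot intensity values from Agilent Feature Extraction 11.5.1.1, background-subtracted and detrended, with 0 or 1 flags for outliers, saturation and signal over background. The processed intensity table that the authors deposited equals these intensities after multiplying by a constant (0.654, 0.829 and 0.706 on the arrays of Colon26, LuM1 and NM11). Its values are linear and not centred.

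Control spots and outlier spots (137, 74 and 99) were dropped. Arrays were then scaled by their 75th percentile. Probes were named through RefSeq accessions of assembly GRCm38.p6 (32994 of 56605, 58.3%). The array header names an older build, so no probe coordinates are given. The probe of highest mean log2 signal stood for its gene. Ratios were taken between arrays, with no test, since each line had 1 array, which limits the precision. The calculation was tested on simulated data with set fold changes.

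The members and lists were chosen with earlier results of these data known. Each member was named with every probe, and other genes of the pathway list and of a list of Igf2bp partners, targets and oncofetal genes where at least 2-fold apart in any comparison. For members at least 2-fold apart and measured on all arrays, the 3 most alike genes were named. Marker lists were of epithelium, fibroblasts, leukocytes and endothelium. Genes outside this rule were chosen after their values were seen.

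The 11 alternatives were no scaling, the median of detected probes, *Hprt*, 7 E1A spike-in controls, quantile normalization, normexp background correction (offset 50), the table of processed values from the authors, 2 looser rules on dim probes, the mean over probes and a threshold of 4-fold. Normexp used each spot's median brightness, the column at hand, in place of the planned mean. Python 3.11.15 (numpy 2.4.6, pandas 2.3.3, matplotlib 3.10.9) and R 4.3.3 with limma 3.58.1 were used.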

Additional observations from a re-analysis of the deposited data

How the results depend on the processing

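Each alternative was set against the 2-fold counts of members and of IGF pathway genes and the ratio of each member, and no ratio of a member past 2-fold changed sign. Of 70 such values under the alternatives, 66 stayed past 2-fold. Over all member ratios, 184 moved by less than the scanner error and 55 by more. Part of the values counted as unmoved could not move. The looser rules on dim probes leave a ratio measured on both arrays as it was. The mean over probes does the same for a gene with a single usable probe. These counts thus overstate how stable the ratios were. Of the 24 member ratios, 4 changed sign under some alternative, all of them under 2-fold. At their farthest, *Igfbp3* (-0.08) and *Igfbp4* (-0.01) in LuM1 over Colon26 became 0.37 and 0.43 with the authors' values, and *Igf2bp1* (0.01) and *Igf2bp3* (0.46) in NM11 over Colon26 became -0.48 and -0.03 with *Hprt*. Relative to the main scaling, the median of measured genes moved in LuM1 over Colon26 by 0.11 without scaling, 0.10 with *Hprt* and 0.45 with the authors' values. In LuM1 over NM11 it moved by 0.18, 0.59 and 0.41, and by 0.32 with E1A, and in NM11 over Colon26 by -0.49 with *Hprt* and -0.32 with E1A.

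Counts of members moved as follows. With *Hprt*, 1 member was lower in NM11 over Colon26 and 3 higher in LuM1 over NM11. With E1A, and with the authors' values, 1 was higher in LuM1 over NM11. With quantile normalization 0 were higher in LuM1 over Colon26, and with normexp 0 were higher in it or in NM11 over Colon26. With the looser detection rule and with no filter on dim probes, 2 were higher in LuM1 over Colon26 and 1 in LuM1 over NM11. At 4-fold, 0 were higher in either line over Colon26. Counts of pathway genes moved too. With *Hprt*, E1A or the authors' values 3 were lower in LuM1 over NM11, and with normexp 2 were higher there. With the authors' values 4 were higher and 3 lower in LuM1 over Colon26. With the looser rule and with no filter 5 were lower in NM11 over Colon26. At 4-fold, 1 was higher and 3 lower in LuM1 over Colon26, 1 and 1 in NM11 over Colon26, and 0 and 3 in LuM1 over NM11. Apart from what scaling and the looser rules do by construction, the cause was not tested.

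Signal over background limits *Igf1*, *Igfbp2*, *Igfbp7* and *Igf2bp3*, which lie near it on at least 1 array. No paired analysis was possible because each line had 1 array.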

Other observations

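Known partners and targets of the Igf2bp proteins and other oncofetal genes were also read, from a list of 18. In LuM1 over Colon26, 14 of 17 with a ratio were below 0, with a median log2 ratio of -0.54 beside -0.10 for all genes, and 4 were at least 2-fold lower and 0 higher, beside 11.8% and 13.1% of all genes. All 4 calls were lost with the authors' processed values (0 lower and 1, *Btrc*, higher, with 10 of 17 below 0 and a median of -0.09, beside 0.35 for all genes) and with quantile normalization (0 and 0). Without scaling or with *Hprt* 3 remained, without *Cd44*. These counts under other settings were added after seeing the data. *Hmga1*, which encodes a chromatin protein of embryonic and tumor cells, was 2.39-fold below its Colon26 signal in LuM1 cells by its brightest probe. Its other probes gave 3.96-fold and 1.83-fold. The related *Hmga2* was 2.25-fold lower by its brighter probe and 1.99-fold by the other. *Myc*, a transcription factor gene whose mRNA Igf2bp1 binds, read 5957 ± 596 in Colon26 cells, 2653 ± 265 in LuM1 cells and 5212 ± 521 in NM11 cells, so LuM1 was 2.25-fold below Colon26. *Cd44*, an adhesion receptor gene, was 2.10-fold below Colon26 and 2.93-fold below NM11 by its brightest probe. Its other probes put LuM1 3.09-fold and 1.24-fold below Colon26, and 3.54-fold and 2.09-fold below NM11.

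In NM11 over Colon26, 1 of 16 was at least 2-fold higher and 0 lower, beside 8.34% and 7.89% of all genes. It was *Lin28b*, which blocks maturation of let-7 microRNAs, which read 33.1 ± 5.52 in LuM1 cells and 114 ± 12.1 in NM11 cells but only 6.56 ± 5.86, not well above background, in Colon26 cells. NM11 was thus at least 4.32-fold above Colon26 by this probe, the brightest of the gene. Another *Lin28b* probe was well above background in NM11 cells alone (39.4 ± 5.90). It put NM11 at least 1.49-fold above Colon26 and LuM1 at least 1.96-fold below NM11. The remaining probe was not well above background on any array. In LuM1 over NM11, 4 of 17 were at least 2-fold lower and 0 higher, beside 8.5% and 11.1% of all genes, namely *Lin28b* (3.44-fold), *Hmga1* (2.10-fold), *Cd44* (2.93-fold) and *Ybx1* (2.16-fold), an RNA-binding protein gene. With *Hprt* only *Lin28b* stayed lower, 2 genes were higher and the median of the list turned from -0.33 to 0.26, beside 0.51 for all genes. *Hmga1* and *Ybx1* lost the call without scaling, with E1A, with quantile normalization and with the authors' values, where the median turned to 0.08 beside 0.33 for all genes, and *Lin28b* lost it with normexp. *H19*, an imprinted RNA, was not well above background on any array. No test was run on these values.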
